A study of Drosophila melanogaster with 12 samples.

Results

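Polycomb group (PcG) proteins keep developmental genes, the Hox genes among them, silent through many cell divisions. Posterior Sex Combs (PSC) and Polyhomeotic (PH) are subunits of Polycomb repressive complex 1 (PRC1), which compacts chromatin and is recruited in flies to Polycomb response elements. Several such binding sites often lie within one PcG target region, so that PRC1 binding forms groups of neighbouring sites. The regions described here are chains of closely spaced PSC binding peaks in sorted control S2 cells, a Drosophila line derived from embryos. They were not assigned to target genes or response elements. In the peak list of PSC control replicate 1, peaks on 2L, 2R, 3L, 3R, 4 and X were joined when no more than 5 kb separated the end of one from the start of the next, and every chain of 4 or more peaks was retained. This gave 184 chains with 842 member peaks, 17.6% of the 4796 peaks of that list on these arms. The members were chosen by the peak positions in this 1 list, so the number, spacing and scores of the chains are a description, and only the other lists are independent of the choice.

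The study asked which PcG sites stay occupied in mitosis, by chromatin immunoprecipitation with sequencing (ChIP-SEQ). Mitotic cells had been arrested with colchicine, which blocks microtubule assembly, at 350 ng/ml (880 nM) for 15 h, fixed and sorted with an antibody to histone H3 phosphorylated at serine 10, and control cells were asynchronous, received no colchicine and were sorted with an antibody to histone H3. PSC was precipitated with a biotinylated antibody from 2 mitotic and 2 control samples, and PH was precipitated on streptavidin from 1 mitotic and 1 control sample of S2-PH, a stable S2 line that expresses biotin-tagged PH at a low level. The 6 input samples of the 12 were not analysed here. Drug, cell cycle stage and sorting antibody change together between mitotic and control cells and cannot be told apart. The paper also reports that its tested sites outside response elements, bound in both sorted populations, were not detected in its unsorted S2 cells. An earlier study of unsorted cells had found some of them. The paper proposes that sorting and the sorting antibodies both contribute to their detection. Whether the chains depend on sorting was not tested here.

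On the 6 arms, the mitotic lists held 566 peaks (PSC replicate 1), 53 peaks (PSC replicate 2) and 149 peaks (PH). The control lists held 4796 (PSC replicate 1), 3254 (PSC replicate 2) and 4589 peaks (PH). Each peak carries a score from the peak caller. The scores are read here as −10 times log10 of the caller's p, because 2 lists end at exactly 50, which is that form of the stated cutoff of 1e-05, but no file header names the quantity. The lowest listed scores also differed, at 50, 72.85 and 50.19 in the 3 mitotic lists (PSC replicates 1 and 2, PH) and at 160.75, 50 and 165.56 in the matching control lists, so scores of different lists are given side by side and not subtracted. The highest control scores pile up at one value: 155 arm peaks of PSC control replicate 1, 32 of them members, share a score of exactly 3100, and ranks above it are coarse. The peak lists hold no read counts, so the depth behind each list was not compared here, and a site that is missing from a list lies below the threshold of that list and is not shown to be unbound. The word "kept" is used below for a control peak that shares at least 1 bp with a mitotic peak, in PSC mitotic replicate 1 unless another list is named.

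Chains were short and mostly held the smallest number of peaks allowed. Of the 184 chains, 119 had 4 peaks, 43 had 5, 10 had 6, 6 had 7, 5 had 8 and 1 had 9. They spanned 8599 to 86636 bp with a median of 17403 bp (quartiles 14409 and 20864 bp), 3596 kb in all, and peaks covered a median of 54.2% of a chain's span. Within chains the 658 gaps had a median of 2220 bp and ranged from 5 to 4991 bp, whereas the median over all 4790 gaps of the list was 8549 bp. At the limit of the rule, the largest gaps that hold a chain of 4 together were 4988 bp (before the 3L peak at 9369944) and 4971 bp (before the 3L peak at 17657586), and the nearest gaps beyond it were 5021 bp (at the 3R peak at 3930405) and 5062 bp (at the 2R peak at 4990116). The other 3954 arm peaks stood alone (1991 peaks), in 617 pairs or in 243 groups of 3.

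The chains were spread over the genome, with the highest share of peaks in chains on 2L and the lowest on 4 and X. Arm 2L had 47 chains (220 of 901 peaks, 24.4%), 2R had 43 (196 of 980, 20%), 3R had 44 (206 of 1189, 17.3%), 3L had 36 (154 of 979, 15.7%), X had 13 (62 of 696, 8.91%) and chromosome 4 had 1 (4 of 51, 7.84%). Neighbouring chains on an arm lay a median of 408 kb apart, from 6.01 kb to 5004 kb, and 19 of the 178 intervals between them were under 50 kb.

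Member peaks resembled the other peaks of the list in strength and width. Their control scores had a median of 661 (quartiles 343 and 1256), against 659 (355 and 1216) for other arm peaks, and their median length was 1778 bp, against 1694 bp. Peaks over 10 kb made up 10 of 842 members (1.19%) and 14 of the other peaks (0.354%), and the 10 long members fell in 5 chains. These 5 chains each spanned at least 48875 bp, and no other chain spanned more than 42350 bp, so the 5 longest chains all hold such a peak.

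The chains kept a share of their peaks in mitosis that was close to that of the rest of the list. In PSC mitotic replicate 1, 96 of 842 members were kept (11.4%, 95% interval 9.33 to 13.7), against 460 of 3954 other arm peaks (11.6%, 10.7 to 12.7), and 11.6% over all arm peaks. Intervals here are exact binomial (Clopper-Pearson) intervals. They cover the counting within a single list, treat peaks as independent although members of a chain are neighbours, and do not cover variation between cultures, so no p-value is given. The kept share was 12.2% of peaks that stood alone (243 of 1991), 148 of 1234 for peaks in pairs and 9.47% of peaks in groups of 3 (69 of 729), and all of these intervals overlap that of the members.

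**Figure D1:**
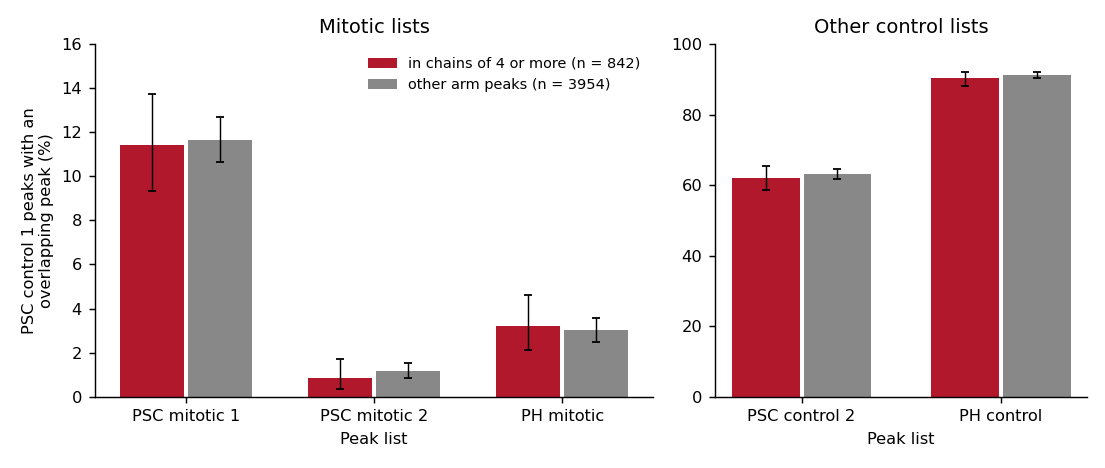
Percent of member peaks in chains of 4 or more (left bar of each pair) and of other arm peaks (right bar) of PSC control replicate 1 that share at least 1 bp with a peak of each other list. Bars are percents and whiskers exact 95% binomial intervals. The paired bars lie close in all 5 lists, from 11.4% against 11.6% in PSC mitotic replicate 1 to 90.3% against 91.3% in PH control.

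The other lists gave the same picture at other levels. PSC mitotic replicate 2 overlapped 7 members (0.831%, 0.335 to 1.71), against 46 other peaks (1.16%, 0.853 to 1.55), with 1.11% over all arm peaks. PH mitotic overlapped 27 members (3.21%, 2.12 to 4.63), against 119 other peaks (3.01%, 2.50 to 3.59), with 3.04% over all arm peaks. At least 1 mitotic list held 99 members (11.8%), against 467 other peaks (11.8%), with 11.8% over all arm peaks. All 3 mitotic lists held 5 members (0.594%), against 35 other peaks (0.885%), with 0.834% over all arm peaks. Since the mitotic PSC lists differ in length themselves (566 and 53 peaks), whether a member is called kept depends on the list.

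Retention followed the control score, inside the chains as outside them. In the highest score decile (2039 and above), 41 of 90 members were kept (45.6%, 35.0 to 56.4), against 179 of 389 other peaks (46.0%, 41.0 to 51.1). In the second decile, 24 of 79 members were kept (30.4%), against 128 of 401 other peaks (31.9%), and in the third 14 of 93 members (15.1%), against 65 of 386 (16.8%). Deciles 4 and 5 kept 9 of 74 members (12.2%) and 6 of 86 (6.98%), against 35 of 406 other peaks (8.62%) and 16 of 394 (4.06%). Below that, 1 of 86 members was kept in decile 7 and 1 of 85 in decile 9, against 8 of 394 and 3 of 395 other peaks. In deciles 6, 8 and 10 no member was kept (of 73, 86 and 90), against 14, 10 and 2 other peaks. Applied to the members' own deciles, the shares of the other peaks give 99.7 kept members, against the 96 counted.

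**Figure D2:**
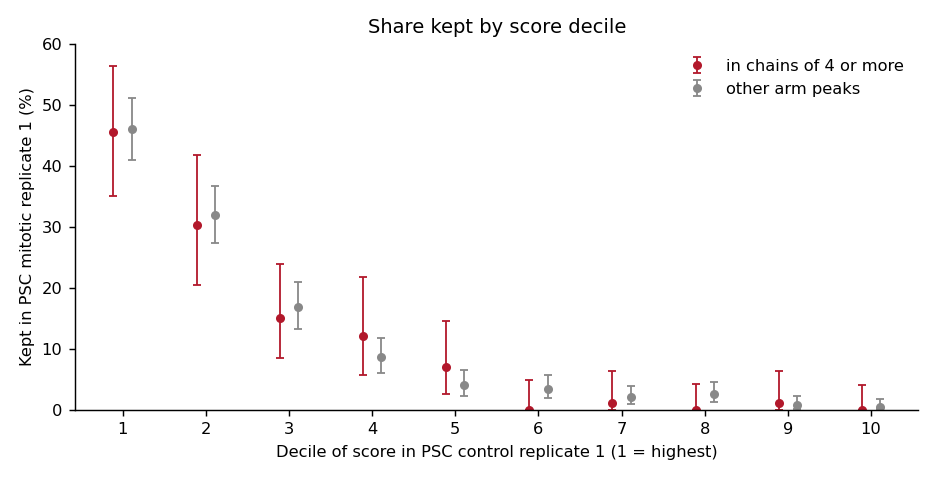
Percent of peaks kept in PSC mitotic replicate 1 (vertical axis) by decile of score in PSC control replicate 1 (horizontal axis, decile 1 the highest), for members of chains and for other arm peaks. Points are percents and whiskers exact 95% binomial intervals. Both sets fall from about 46% in decile 1 (45.6% of members and 46.0% of other peaks) to near 0 in decile 10.

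The saturated peaks showed the same. Of 40 members with a control score of 3100 or more, 23 were kept (57.5%, 40.9 to 73.0), against 81 of 143 other peaks (56.6%, 48.1 to 64.9). By arm, the kept share of members was 11.8% on 2L (other peaks 12.6%), 11.2% on 2R (12.8%), 10.4% on 3L (11.9%), 11.7% on 3R (12.5%) and 12.9% on X (8.36%). On chromosome 4, none of the 4 members and none of the 47 other peaks was kept.

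Many chains had no peak kept. In PSC mitotic replicate 1, 105 of 184 chains had no kept member (57.1%, 49.6 to 64.3), 64 had 1, 13 had 2 and 2 had 3. The 11.6% kept over all arm peaks, applied to each member separately, gives 105.4 chains of these sizes with none kept. That figure gives every peak the same share and includes the members themselves. The kept share of members in fact fell from 45.6% in the highest score decile to 0 of 90 in the lowest. The figure is therefore a scale for the count, and nothing is concluded from the match. In PSC mitotic replicate 2, 177 of 184 chains had no kept member. Of the 105, 103 had no member in any mitotic list. Chains without a kept member were 72 of 119 among chains of 4 (60.5%), 24 of 43 among chains of 5 (55.8%) and 9 of 22 among longer ones (40.9%), and larger chains also have more members that could be kept. The 105 chains were on 2L (25), 2R (25), 3L (23), 3R (24), 4 (1) and X (7).

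Chains with none kept were those with a weaker strongest peak. The highest control score in a chain had a median of 2545 (quartiles 1597 and 3100) in the 79 chains with a kept member, against 1462 (1028 and 2042) in the 105 without. The ranges overlapped almost fully, from 521 to 3213 in chains with a kept member and from 285 to 3217 in chains without. Ordered by that score into 4 sets of 46 chains, 9 chains of the highest set had none kept (19.6%), then 27 (58.7%), 31 (67.4%) and, in the lowest set, 38 (82.6%). Chains with a kept member were also longer, with a median span of 19289 bp, against 16135 bp.

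**Figure D3:**
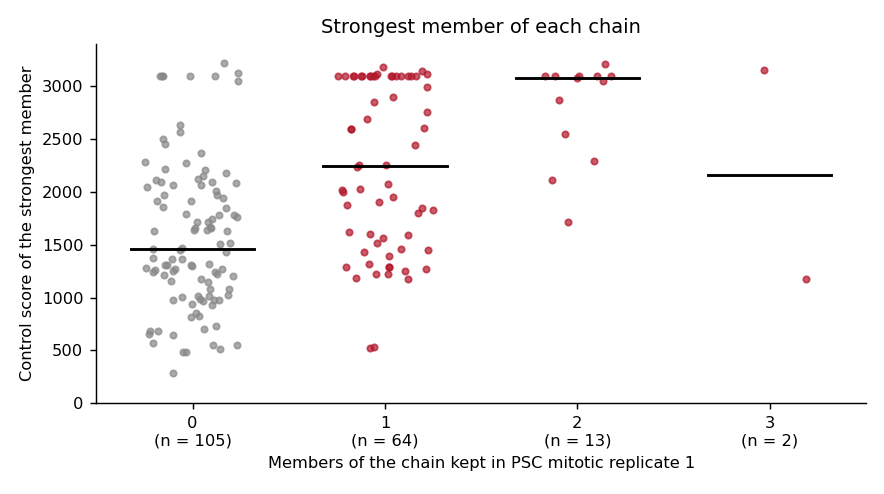
Score of the strongest member of each chain in PSC control replicate 1 (vertical axis), by the number of its members kept in PSC mitotic replicate 1 (horizontal axis). Each point is a chain and the bars are medians, which were 1462 for the 105 chains with none kept, 2243 for the 64 with 1, 3080 for the 13 with 2 and 2165 for the 2 with 3.

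The strongest peak of a chain was the one most often kept. Among members ranked first by control score in their chain, 56 of 186 were kept (30.1%, 23.6 to 37.2), against 40 of 656 of the rest (6.10%, 4.39 to 8.21). The 186 include ties in 2 chains. The share was 12.6% at rank 2 (23 of 183), 6.56% at rank 3 (12 of 183), 2.17% at rank 4 (4 of 184) and 0.943% at rank 5 and below (1 of 106). In the 79 chains with a kept member, the strongest was kept in 55 (69.6%, 58.2 to 79.5), and of the 64 chains with a single kept member this was the strongest in 41, rank 2 in 13, rank 3 in 7 and rank 4 in 3. Strongest members made up 6 of the 7 members in PSC mitotic replicate 2 and 19 of the 27 in PH mitotic.

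Rank and score go together by definition, and strongest members had a median control score of 1795, against 502 for the rest. How much of the order by rank goes with the score was not measured. Within the highest decile, 36 of 76 strongest members were kept (47.4%, 35.8 to 59.2), against 5 of 14 that were not the strongest of their chain (35.7%, 12.8 to 64.9) and 46.0% of peaks outside chains. In the second decile the order turned, with 12 of 46 strongest members kept (26.1%), against 12 of 33 others (36.4%) and 31.9% outside chains. In the third decile 8 of 35 strongest members were kept (22.9%), against 6 of 58 others (10.3%) and 16.8% outside chains. Scores were not equal within these deciles: the medians were 3066 for strongest members, against 2361 for the others, in the first, 1716 against 1622 in the second and 1263 against 1206 in the third. Over these 3 deciles the order by rank was not steady, and the numbers are small.

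The rank could also be taken from control lists that did not set the chains. Ranked by the overlapping PH control peak, 58 of 206 strongest members were kept (28.2%, 22.1 to 34.8), against 38 of 636 others (5.97%). Ranked by PSC control replicate 2, 60 of 182 strongest members were kept (33.0%, 26.2 to 40.3), against 36 of 660 others (5.45%), and in 60 of the 79 chains with a kept member that strongest peak was kept (75.9%). In both rankings the others include members without a peak in the ranking list. PH control held 760 of the 842 members and PSC control replicate 2 held 522. Members absent from these lists were seldom kept, which lowers the share of the others and widens the contrast. Members that were strongest in all 3 control lists were kept in 40 of 99 cases (40.4%, 30.7 to 50.7), those strongest in PSC control replicate 1 but not in both other lists in 16 of 87 (18.4%), those strongest only in another control list in 20 of 104 (19.2%), and those strongest in none in 20 of 552 (3.62%). Their median scores in PSC control replicate 1 differed too, at 2026 for the first of these sets, 1630 for the second, 913 for the third and 453 for members strongest in none.

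Taken over all deciles, edge and interior peaks were kept at similar rates. The first and last peaks of the chains were kept in 46 of 368 cases (12.5%, 9.30 to 16.3), and interior peaks in 50 of 474 (10.5%, 7.93 to 13.7). Edges made up 43.7% of members and 47.9% (37.6 to 58.4) of kept members. Median control scores were 679 at edges and 650 inside. By score decile the order was not steady. In the highest decile 17 of 43 edge members (39.5%) and 24 of 47 interior members (51.1%) were kept. In the second decile the shares were 26.8% at edges and 34.2% inside, and in the third 22.5% and 9.43%. PH mitotic leaned the other way, with 8 edge members (2.17%) and 19 interior members (4.01%). Strongest members were kept at 30.1% both at an edge (25 of 83) and inside (31 of 103), and the rest at 7.37% at an edge (21 of 285) and 5.12% inside (19 of 371). Where a chain kept a single peak, it was an edge in 33 chains and an interior peak in 31.

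**Figure D4:**
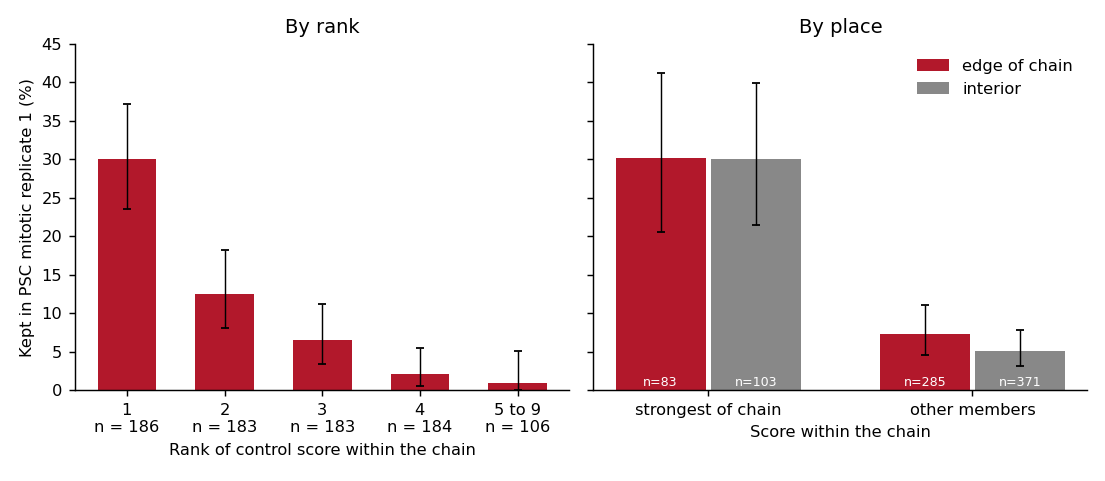
Percent of members kept in PSC mitotic replicate 1 by rank of control score within the chain and by place in the chain, edge or interior. Whiskers are exact 95% binomial intervals. The strongest members stand at 30.1%, rank 2 at 12.6% and rank 3 at 6.56%, while edges (12.5%) and interior members (10.5%) overlap.

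The 15 chains with 2 or 3 kept peaks held 17 pairs of successive kept members, 6 of them adjacent (1 of these under a single mitotic peak), with a median distance of 4549 bp between the pair. Over the 658 adjacent member pairs, both were kept in 6 (0.912%), 1 in 134 (20.4%) and neither in 518 (78.7%). Mitotic peaks inside chain spans never fell between members: all 97 of PSC mitotic replicate 1, 7 of PSC mitotic replicate 2 and 27 of PH mitotic lay on a member. The paper reports that mitotic peaks were a subset of the control peaks, so this is not particular to chains. None of the mitotic lists held a chain of 4 by the same rule, the longest having 3 peaks in PSC mitotic replicate 1, 1 in PSC mitotic replicate 2 and 3 in PH mitotic. These lists are far shorter than the control list (566, 53 and 149 arm peaks, against 4796). So few peaks leave little room for such chains, and no loss of clustering can be read from their absence. The nearest peaks on either side of the chains were kept in 43 of 368 cases (11.7%, 8.59 to 15.4). The share was 15.8% (25 of 158, 10.5 to 22.5) beside chains with a kept member, against 8.57% (18 of 210, 5.16 to 13.2) beside chains with none. Median control scores of these flanking peaks ran the other way, at 596 beside chains with a kept member and 676 beside chains with none. Of the 368, 16 are members of another chain and some flank 2 chains. Counted once and without members, 40 of 345 were kept (11.6%).

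Kept members had higher control scores than lost ones, and mitotic scores like those of the other kept peaks. Mitotic and control scores come from different lists, so neither is called high or low against the other. Their mitotic scores in PSC mitotic replicate 1 had a median of 117 (quartiles 71.9 and 212, range 51.36 to 3044.82), close to 117 for the other kept peaks. Their control scores had a median of 1777 (quartiles 1266 and 3059), against 573 for lost members, and their control peaks were wider, at a median of 2413 bp, against 1716 bp. Outside chains the same held, with median scores of 1798 for kept and 599 for lost peaks and median lengths of 2034.5 and 1651 bp. Across the 96 kept members the mitotic and control scores had a Spearman correlation of 0.246, a description over peaks of the same 2 libraries. PH mitotic also held 25 of the 96 kept members (26.0%), against 112 of the 460 kept peaks outside chains (24.3%), and PSC mitotic replicate 2 held 6 (6.25%), against 46 (10%).

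PH control covered nearly all members, as it did the rest of the list. It overlapped 760 of 842 members (90.3%, 88.1 to 92.2), against 3609 of 3954 other peaks (91.3%, 90.4 to 92.1), and 91.1% over all arm peaks. In 117 of 184 chains (63.6%) every member had a PH control peak, 52 chains lacked it at 1 member, 15 at 2, and no chain lacked it at all members. All 186 strongest members had one. PH control peaks were sometimes broader than the PSC peaks, so that 27 of the 742 PH peaks on members covered 2 or 3 members and lend them the same score. The scores of the 760 members in the PSC and PH control lists had a Spearman correlation of 0.863, again as a description.

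Members without PH control were weak and none was kept. Their 82 PSC control scores had a median of 219, against 740 for members with PH, and 63 of them (76.8%) lay in the lowest 2 deciles. None of the 82 was kept, against 96 of 760 with PH. In those 2 deciles the other arm peaks were rarely kept as well (3 of 395 in decile 9 and 2 of 390 in decile 10). The kept share of peaks without PH outside chains is not given here, so the count is not shown to be particular to members. The 82 sat at an edge in 34 cases, and PSC control replicate 2 held 14 of them. Every member was in PH control in 55 of the 79 chains with a kept member (69.6%), against 62 of the 105 chains without (59.0%).

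The replicate control list recovered fewer members. PSC control replicate 2 overlapped 522 members (62.0%, 58.6 to 65.3), against 2497 other peaks (63.2%, 61.6 to 64.7), and 62.9% over all arm peaks. It held 92 of 96 kept members (95.8%), against 430 of 746 lost ones (57.6%). Kept members also had the higher control scores, and the list held more of the strong members: 165 of 186 strongest members (88.7%), against 73 of 184 at rank 4 (39.7%). The matching shares for kept and lost peaks outside chains are not given here. PSC control replicate 2 contained every member of 21 chains (11.4%) and no member of 4. Built from its own peaks, it gave 44 chains, which overlapped 33 of the 184 (17.9%), and 33 of its 44 (75%) overlapped one of the 184. PH control gave 152 chains by the same rule, which overlapped 122 of the 184 (66.3%), and 123 of the 152 (80.9%) overlapped one of the 184. Most of the 184 are thus not chains of 4 in the other PSC list.

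Individual chains show how the kept peaks are placed. They are named by arm and position on the dm3 build. No gene annotation of that build was used here, so no genes are assigned. Score lists run in the order of the peaks along the chain.

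The chain with most peaks lay on 3R from 7034025 to 7070681 (9 peaks, 36657 bp). Its control scores were 1459.79, 536.05, 1245.11, 284.51, 3051.81, 407.82, 459.66, 1384.39 and 1724.8. The 2 strongest of these were kept. The interior peak from 7046458 to 7048987 had scores of 329.72 in PSC mitotic replicate 1 and 64.24 in PH mitotic, against 3051.81, 270.99 and 3100 in PSC control replicates 1 and 2 and PH control, and no peak in PSC mitotic replicate 2. Only 5 bp separate it from a weak neighbour that was lost. The right edge, from 7068455 to 7070681, had 148.96 in PSC mitotic replicate 1 alone, against 1724.8, 388.67 and 2225.93 in the same 3 control lists. All 9 peaks had PH control and 6 had PSC control replicate 2.

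Of the 4 named chains with 8 peaks, 2 kept a single peak and 2 kept none. On 2L from 7023273 to 7057060, the strongest member (7031954 to 7034018) was kept at 164.7 in PSC mitotic replicate 1, against 1289.41, 102.88 and 1338.72 in PSC control replicates 1 and 2 and PH control. On 2L from 101566 to 143915, the kept peak was the left edge (101566 to 103063), at rank 3, with 51.56 in PSC mitotic replicate 1, against 717.1, 85.85 and 795.42 in the control lists in that order. The strongest peak there, at 119784 (1224.18, 130.8 and 1313.03 in the control lists), was lost. The chain on 2R from 2531943 to 2564279 kept none, although its strongest peak at 2548797 had control scores of 3100, 377.89 and 3100. The chain on 2L from 21141660 to 21169647 also kept none, with a strongest peak of 1518.2 at its left edge.

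The longest chains were made long by broad peaks. The chain on 3R from 25547321 to 25633956 (86636 bp, 4 peaks) had member lengths of 16886, 21107, 33528 and 11571 bp and control scores of 782.69, 530.46, 2012.8 and 3079.8. A single mitotic peak of 39716 bp with a score of 57.2 covered the whole of the third member and part of the fourth, and a further one of 10909 bp (56.89) overlapped the fourth alone. The chain on 2R from 1580206 to 1650978 (70773 bp), which holds the widest member of all (43208 bp, control score 425.6), kept none, and its left edge had the highest score, 2371.83. The chain on 3L from 8652192 to 8715492 (63301 bp) kept none either, with its highest score, 2503.69, at the right edge.

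**Figure D5:**
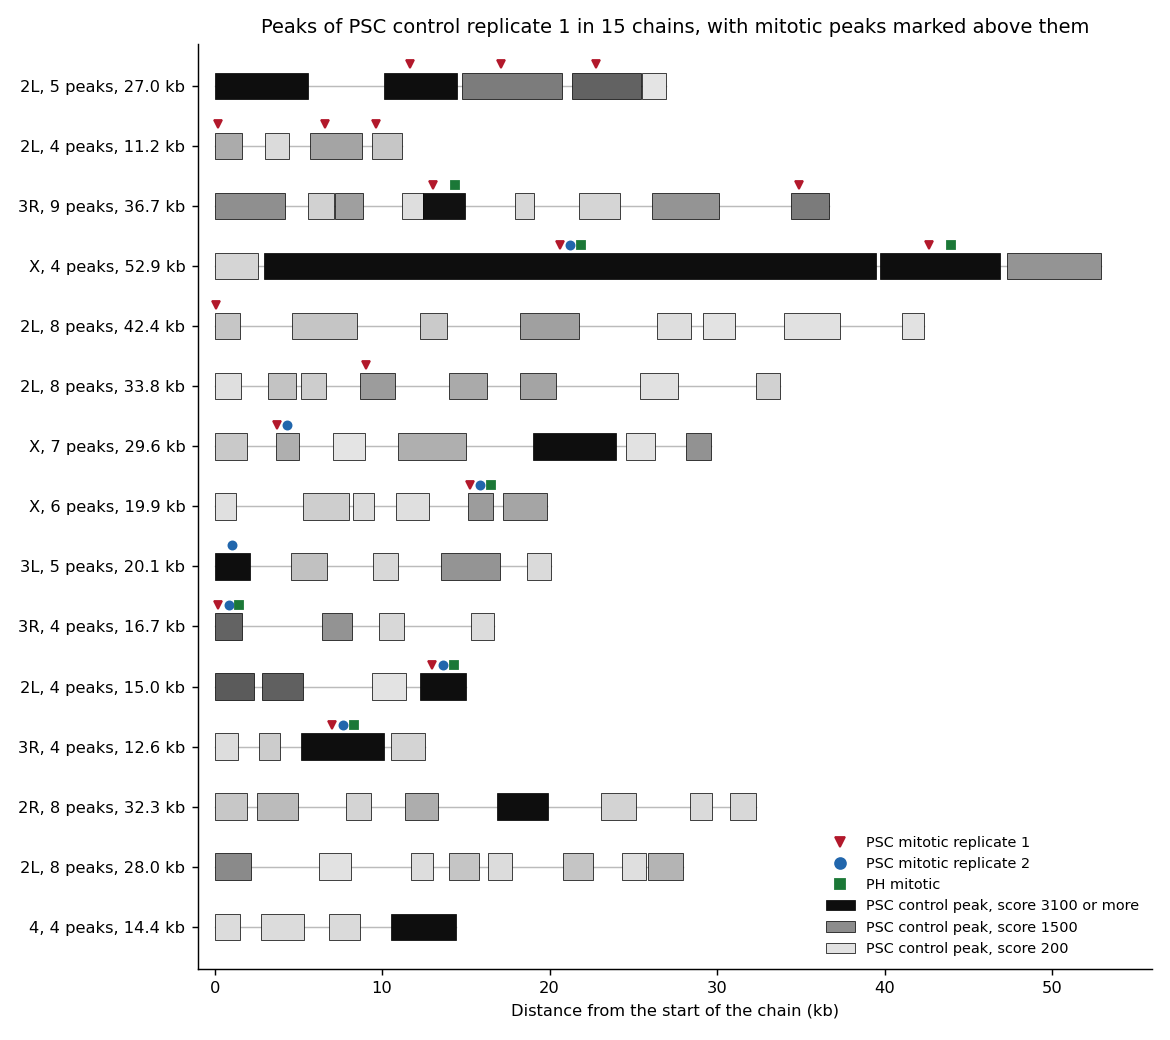
Maps of 15 chains: those with most peaks, those with a member in PSC mitotic replicate 2, those with 3 kept members and the chain on chromosome 4. Boxes are peaks of PSC control replicate 1 to scale, darker for a higher score, along the distance in kb from the chain's start, and symbols above mark a mitotic peak on that member (drawn near its middle and shifted sideways so that they do not hide each other). The symbols sit on a single member in 8 of these chains, and 3 chains carry none.

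The 7 chains with a member in PSC mitotic replicate 2, the shortest list, include the member with the highest mitotic score. On 3R from 27038448 to 27051011, the member from 27043626 to 27048575 had scores of 3044.82, 138.3 and 346.83 in PSC mitotic replicates 1 and 2 and PH mitotic, against 3100, 381.89 and 3100 in the matching control lists. Its mitotic score in PSC mitotic replicate 1 was the highest of all members. The neighbours, with control scores of 297.34, 604.28 and 469.84, were in no mitotic list. On 2L from 4996752 to 5011744, the right edge (5008991 to 5011744) had 930.18, 151.05 and 176.87 in the mitotic lists, against 3100, 285.78 and 3100 in control. The other end of this chain holds a pair of strong peaks, 2190.68 and 2117.69 in PSC control replicate 1 and both 3100 in PH control, that were lost in all 3 mitotic lists.

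In some of the other chains with a member in PSC mitotic replicate 2, that member scored below 3100 in PSC control replicate 1. On 3R from 7438341 to 7455051, the left edge had 369.55, 209.9 and 104.23 in PSC mitotic replicates 1 and 2 and PH mitotic, against 2070.35, 478.69 and 1318.66 in the matching control lists. On X from 1958679 to 1978534, the fifth of 6 peaks (1973816 to 1975283) had 497.38, 88.55 and 56.95 in the mitotic lists, against 1287.93, 335.32 and 1509.1 in control. Its right neighbour, 643 bp away, had a similar control score in PSC replicate 1, 1162.66, with no peak in PSC control replicate 2 and 552.75 in PH control, and was lost. On X from 5773205 to 5802829, the kept peak at 5776860 was at rank 4 of 7, with 234.95 and 131.4 in the mitotic PSC lists and none in mitotic PH, against 1044.42, 202.3 and 966.36 in control. The strongest peak of that chain, at 5792208 with 3100, 140.84 and 3100 in control, was in no mitotic list.

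A pair of these chains rests on special cases. On X from 12609147 to 12662072, a peak of 36553 bp (12612115 to 12648667) had 363.84, 191.07 and 329.11 in the mitotic lists, against 3100, 1860.04 and 3100 in control, and the mitotic peaks on it were themselves 29364, 8544 and 34183 bp long. Its right neighbour at 12648868 had 131.96 and 67.19 in PSC mitotic replicate 1 and PH mitotic, against 3100 and 2546.94 in PSC control replicate 1 and PH control. On 3L from 9434653 to 9454763, the left edge was in PSC mitotic replicate 2 alone among the mitotic lists (97.54), against 3100, 471.69 and 3100 in control. Besides it, 2 members were in a mitotic list other than PSC replicate 1, both in PH mitotic and both the strongest of their chain: the 2L peak from 4970572 to 4972507 (125.29 in PH mitotic, against 1793.33 in PSC control replicate 1) and the 2L peak from 10230081 to 10233253 (50.78, against 3100).

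A pair of chains kept 3 peaks each. On 2L from 9887119 to 9898298, 3 of 4 peaks were kept with 81.46, 69.48 and 88.44 in PSC mitotic replicate 1, against 1087.64, 1177.73 and 709.3 in PSC control replicate 1, and the lost one, the second, had 342.81. On 2L from 468111 to 495067, the 3 interior peaks of 5 were kept with 110.34, 72.69 and 102.84, against 3151.41, 1713.12 and 2096.86. The edges were lost, although the left one had a control score of 3100, and the right one had 160.75, the lowest in the list. None of these 6 kept peaks was in PSC mitotic replicate 2 or PH mitotic.

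In the next pair of chains, an interior peak and the right edge were kept. On 3L from 18880514 to 18899081, the second peak (18889624 to 18893846) had 783.13 and 161.83 in PSC mitotic replicate 1 and PH mitotic, against 2792.67, 276.16 and 3100 in PSC control replicates 1 and 2 and PH control, and the right edge had 125.55 in PSC mitotic replicate 1, against 1045.22 in its control. The left edge, strongest of the chain at 2872.64, was lost. On 3L from 9839744 to 9858591, the second peak (198.72 and 101.59 in PSC mitotic replicate 1 and PH mitotic, against 3100 in PSC control replicate 1) and the right edge (94.4, against 1423.71) were kept. These were the 2 strongest of the 4.

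In 2 further chains the weaker of the kept peaks had the higher mitotic score. On 2R from 19430975 to 19443072, the second peak had 154.14 in PSC mitotic replicate 1, against 870.43 in PSC control replicate 1, and the right edge 53.94, against 2295.89. On 3L from 17646279 to 17663541, the left edge had 140.34, against 1062.25, and the right edge 61.89, against 3100.

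In 24 chains a kept peak was found while the strongest was lost, 25 members in all. In 1 of these chains the kept peak had exactly 3100 and the strongest 3116.25, so their order rests on the piled-up scores. One of them was the 2R peak at 19751591, kept with a control score of 979.41 in a chain whose strongest had 3100.

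Strong chains could lose every peak. Of 35 chains whose strongest member scored 3100 or more, 7 had no kept member in PSC mitotic replicate 1 and 21 kept a strongest member. Among the 7 is the chain on 3L from 9434653 to 9454763, whose strongest peak was in PSC mitotic replicate 2. Among chains with no member in any mitotic list, the highest median score was on 2R from 8866831 to 8886891, with 1307.17, 1284.28, 2203.06 and 1804.6 in PSC control replicate 1. All 4 were also in PSC control replicate 2 (612.7, 294.86, 295.79 and 561.08) and in PH control (1804.89, 1357.59, 3204.45 and 1717.71). On 3R from 5321912 to 5342942, all 5 peaks, with 1470.7, 647.49, 690.47, 1614.23 and 2067.22 in PSC control replicate 1, were in both other control lists and in no mitotic list. These lost sites were thus called in every control sample.

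The other chains of this kind had weaker members beside strong ones. On 3L they ran from 15086953 to 15102366 (strongest 1971.43), from 19888021 to 19908757 (3045.14, with 222.07 and 2856.92 in PSC control replicate 2 and PH control) and from 16995303 to 17010294, where 2 peaks of 2094.99 and 2062.57 had PH control and the other 2 had neither PH control nor PSC control replicate 2. The only chain on chromosome 4, from 76529 to 90912, had 322.89, 312.98, 365.58 and, at its right edge, 3100 in PSC control replicate 1. That edge had 248.85 in PSC control replicate 2 and 3100 in PH control, and no member of the chain was in a mitotic list.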

How the data were processed

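Peak lists of 6 ChIP-SEQ samples from S2 cells were used. Per the study's methods, reads of 36 bases were aligned to dm3 with Bowtie and only uniquely mapping reads were used. The authors called peaks with MACS in Galaxy (fragment size 36, bandwidth 200, genome size 120000000, p cutoff 1e-05), kept a false discovery rate of 5% or less except for mitotic PH, and removed the U and Uextra sequences. The submitters' processing notes list Bowtie 1.1.2 and MACS 1.0.1. The deposited files give positions and 1 score per peak, in 1 list per sample, with no header and no read counts, so the depth of each list was not used. The authors' own threshold therefore decides which sites can be compared.

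Chains were built from end to next start, positions are printed 1-based, and overlap means at least 1 shared bp. Ties share a rank, and edges are the first and last peak of a chain. Where several peaks overlap a member, the highest score is given. Named chains are the 5 with most peaks, the 3 longest of the others, all with a member in PSC mitotic replicate 2, 8 with most kept members (ties by the share of members kept, then by mitotic score), the 5 with the highest median score among those in no mitotic list, and the one on chromosome 4. Examples from the 25 kept members in chains whose strongest was lost, and the 3 members found only in another mitotic list, were picked after their values were seen. The members and named sets were chosen with earlier results of these data known. No test was run, since peaks are not replicates and 2 samples against 2 cannot give an exact 2-sided p under 0.333. Other gaps, sizes, thresholds, overlaps and lists were tried, and the steps were checked on simulated peaks. Python 3.11.15, numpy 2.4.6, pandas 2.3.3, scipy 1.17.1 and matplotlib 3.10.9 were used.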

Additional observations from a re-analysis of the deposited data

How the results depend on the processing

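Of 72 values under alternative settings, 42 were counted as the same and 30 as moved. A share was the same inside the 95% interval of the reported share. A number of chains was the same within a fixed ratio of the reported number. Counted as the same as 105 of 184 chains with none kept (57.1%) were 132 (71.7%) at mitotic scores of at least 100. So were 154 (83.7%) at or above the lowest control score, whereas 209 of 363 (57.6%) with a gap of 10000 bp counted as moved. The number of chains was 38 with a gap of 2500 bp, 363 with 10000 bp, 427 with chains of 3 or more, 65 with 5 or more, 13 from the upper 50% of the list by score and 44 from PSC control replicate 2. Chains with none kept then numbered 19, 209, 291, 33, 4 and 25 in the same order, and 158 with the mitotic PH list. The kept share of members was 15.4% with a gap of 2500 bp (other peaks 11.5%, exact interval of the members 10.2% to 21.9%), 21.4% in the upper 50% (other peaks 21.6%), 7.13% at mitotic scores of at least 100 (6.58%), 3.68% at or above the lowest control score (4.63%) and 3.21% with the mitotic PH list. It exceeded that of the other peaks in 3 of 16 alternatives. Edges made up 36% of kept members with a gap of 2500 bp (46.9% of members), 58.8% with chains of 3 or more (54.4%), 29.0% at or above the lowest control score and 29.6% with the mitotic PH list (both 43.7%). The edge share of kept members was above that of members in 8 of 13 alternatives. These alternatives reuse many of the same peaks, so their tally cannot decide on a lean to edges or interior, and none is claimed. The strongest peak was kept in 44.4% of chains with a kept member in the upper 50%, where 9 such chains remained, and PH control covered 100% of members there, 94.9% of members of the 44 chains, and 49.6% when only the upper 50% of PH control was used.

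Leaving out a PSC sample in turn, its replicate taking its place, gave a kept share of 0.831% to 13.3%, 25 to 177 chains with none kept, edges as 42.9% to 50% of kept members and the strongest kept in 63.2% to 85.7% of chains with a kept member. The lowest kept share and the 177 chains come from leaving out PSC mitotic replicate 1. A replicate block, with PSC mitotic replicate 2 set on the chains of PSC control replicate 2, kept 0 of 196 members (exact upper bound 1.86%), against 1.70% of its other peaks. No paired analysis was possible because the numbers do not tie cultures of both conditions together and no test was run. Chosen after seeing the data, leaving out the 5 chains with a peak over 10 kb gave 11.1% of members kept, 103 of 179 chains with none kept, 49.5% of kept members at edges and 68.4% of chains with the strongest kept, leaving out chains with a strongest score of 3100 or more gave 66.7% for that last share, and the 152 chains of PH control kept 11.4% of members, against 12.2% of its other peaks. The lists hold no read counts, which limits every loss described here.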
